A study of Mus musculus with 6 samples.

Results

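The genes described here are the replication-dependent histone genes of the mouse, chosen by name as every gene whose symbol starts with Hist1h, Hist2h or Hist3h in the deposited expression tables. There were 68 of them among 18946 genes listed in at least 1 of the 2 tables, and 67 were listed in both. By the histone class in their names, the 68 comprised 6 genes of H1, 19 of H2A, 19 of H2B, 12 of H3 and 12 of H4. RefSeq lists 2 of them, Hist1h2al and Hist3h2bb-ps, as transcribed pseudogenes. The 68th, Hist2h3c1, was listed in the table of replicate 1 only. It stood at FPKM 0 in con and ICN and at 2.13 in CTdel, and it entered no test. FPKM, the unit of the tables, counts fragments after scaling by transcript length and library size.

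The cells were BaF3, a mouse line with a pro-B label whose growth depends on interleukin-3, kept in medium with 10% serum and 2 ng/mL of the cytokine. All 3 groups were nucleofected with a plasmid and sorted after 24 h, and all plasmids carried Clover, a green fluorescent protein. The con group had pmax-Clover, the ICN group had pmax-Clover-ICN, and the CTdel group had pmax-Clover-CTdel, which the series text describes as the mutated form of the ICN plasmid. ICN is the usual short name of the intracellular part of NOTCH1, the piece that a Notch receptor releases to act in the nucleus. What was removed or changed in CTdel, the species of the insert, and whether sorting was on Clover are not stated in the labels. Each group had 2 libraries, and the libraries numbered replicate 1 came in a table of their own, as did those numbered replicate 2, so every difference below was taken within a replicate. No label says that the numbers stand for separate cultures or nucleofections, so p-values here speak of the spread among 6 libraries, which may be technical.

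Histones are the proteins around which DNA is wrapped. Pairs of H2A with H2B and of H3 with H4 build the core of the nucleosome, and H1 sits on the linker DNA between cores. The cluster genes have no introns as a rule, are switched on when DNA is copied, and give mRNAs that end in a short stem-loop in place of a poly(A) tail. The stem-loop is bound by SLBP and cut with the help of the U7 small nuclear RNA. Some of the genes can also give a longer mRNA with a poly(A) tail, as is known for differentiating cells. A library that takes RNA by its poly(A) tail therefore catches only a part of histone mRNA. The libraries here were made with a kit for mRNA, per the labels' protocols, and how that kit picked mRNA is not stated there.

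The stem-loop is the feature these mRNAs share, so it is shown for genes on which the results below turn. A 16-base stem-loop sequence was found in a GENCODE vM21 transcript of 45 of the 68 genes, against 0.242% of 21877 protein-coding gene names in that set (53 names). Of the 23 genes without a match, 12 had only transcripts that stop at the end of the coding sequence, so no stem-loop could be seen in them. The sequences below are in GRCm38, 5′ to 3′ on the strand of the gene, and the capitals mark the stem-loop itself.
Hist1h1c (H1, chr13:23739507-23739532, plus strand): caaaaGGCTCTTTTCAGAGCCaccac
Hist1h2ap (H2A, chr13:21833026-21833049, minus strand): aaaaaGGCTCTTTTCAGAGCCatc
Hist1h2bg (H2B, chr13:23571838-23571863, plus strand): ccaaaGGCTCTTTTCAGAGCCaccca
Hist1h3d (H3, chr13:23576239-23576264, plus strand): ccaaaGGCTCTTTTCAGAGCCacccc
Hist1h4m (H4, chr13:21812124-21812147, plus strand): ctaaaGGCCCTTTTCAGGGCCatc
Hist1h4i (H4, chr13:22040961-22040986, minus strand): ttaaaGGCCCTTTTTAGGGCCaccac
The same 16 bases, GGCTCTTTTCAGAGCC, were found in 26 genes of H1, H2A, H2B and H3. In all, 8 variants occurred. The 11 H4 genes with a match had 4 other variants, of which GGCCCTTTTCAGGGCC was found in 6 genes. GENCODE transcripts ran more than 100 bases past the stem-loop in 22 genes, Hist1h1c (840 bases), Hist1h2bg (155), Hist1h3d (752) and Hist1h4i (330) among them, and those of Hist1h2ap and Hist1h4m ended 3 bases past it.

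Upstream, an octamer occurred at H2A and H2B genes only. The 250 bases before the start of 62 RefSeq promoters (GRCm38.p6) of 61 of the genes were searched on both strands for TATAAA, for CCAAT and for the octamer ATTTGCAT, none of which contains another. The octamer was found in 38.9% of 18 H2A promoters and 41.2% of 17 H2B promoters, in 0 of the 6 promoters of H1, 10 of H3 and 11 of H4, and in 1.6% of 32851 promoters of all genes. Some H2A and H2B genes point away from each other and share these bases, so a single site can count for both. The octamer of Hist1h2bg is also the one scored for Hist1h2ae, 175 bases away. The H2A and H2B shares are therefore not separate counts of sites. CCAAT was found in 83.9% of the histone promoters against 33.8% of all promoters, and in 27.3% of the H4 promoters. TATAAA was found in 46.8% against 12.4%. The 130 bases before the start are shown for Hist1h2bg, the single cluster gene past the test below, and for Hist1h1c and Hist1h4m, which stood out beside it. Capitals mark matches to the 3 motifs in either direction.
Hist1h2bg (chr13:23571270-23571399, plus strand): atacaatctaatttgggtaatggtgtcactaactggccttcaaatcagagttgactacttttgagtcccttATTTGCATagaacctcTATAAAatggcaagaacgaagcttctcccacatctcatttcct
Hist1h1c (chr13:23738677-23738806, plus strand): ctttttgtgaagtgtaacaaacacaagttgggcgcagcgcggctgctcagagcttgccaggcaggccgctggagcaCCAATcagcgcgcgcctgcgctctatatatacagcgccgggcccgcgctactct
Hist1h4m (chr13:21811616-21811745, plus strand): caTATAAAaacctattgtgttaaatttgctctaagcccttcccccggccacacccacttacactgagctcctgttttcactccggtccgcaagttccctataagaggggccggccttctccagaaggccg
A match here is a match of letters, and a factor's binding was not measured.

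Because the genes are copies of each other, their reads can be hard to place. Of all 50-base windows in the GENCODE transcripts of a cluster gene, a median of 49.6% also occurred in a transcript of another gene, and in 33 genes it was more than 50%. The median was 67.6% for H2A, 62% for H3, 44.1% for H2B and 40% for H4, and it was 1.12% for H1. Hist1h2bq and Hist1h2br had identical FPKM in all 6 libraries. For Hist1h1c the share was 8.54%, for Hist1h2bg 49.7% (45% with Hist1h2bc), for Hist1h4m 89.8% (all with Hist1h4n), and for Hist1h2ap 93.1% (all with Hist1h2ao). How the authors' counting split such reads was not tested, so values of single genes with large shares are uncertain and sums over a class are given beside them.

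The depth of the libraries was estimated, not measured. In genes of 900 to 1100 bases, FPKM times length between 40 and 70 was taken as the step of a single fragment. The median of that step put depth at about 17400000 to 20400000 fragments per library. The same range was used for every library and bounds these numbers, so they cannot show whether depths were alike. At the median length of a cluster gene, 492 bases, FPKM 1 is then 8.54 to 10 fragments. Notch1 stood at FPKM 0.89 and 1.72 in con, with 190.02 and 888.47 in ICN and with 84.94 and 25.36 in CTdel, and so the libraries followed their plasmid labels, with plasmid and cellular reads not separated. The log2 difference from con was 7.51 in ICN (limma, adjusted p = 0.103) and 4.39 in CTdel (adjusted p = 0.0947). Of the pro-B and BaF3 list, 15 of 16 genes were listed in a table. The interleukin-3 receptor chains were present (Il3ra at FPKM 18.99 to 35.14). A further 7 genes of the list, Ebf1, Pax5, Rag1, Rag2, Igll1, Vpreb1 and Il7r, were near 0. These 7 markers of the pro-B label did not exceed FPKM 0.37 in any library. The B cell receptor genes of the list were above that, Cd79b at FPKM 3.62 to 13.42 and Cd79a at up to 3.15, both highest in a CTdel library. Of the lists for other cells, 5 T and NK cell markers stayed at or below FPKM 0.97, and 7 fibroblast and endothelial markers other than Pecam1 at or below 0.74, while Pecam1, which blood cells also express, was at 39.54 to 62.77. Of the 10 macrophage and granulocyte markers, 9 were listed in both tables, and Cd14 for replicate 1 alone. The 9 summed to FPKM 78.41 and 112.1 in con, with 86.48 and 51.24 in ICN and with 82.09 and 75.04 in CTdel. Adgre1, S100a8 and S100a9 led that sum, and the members differed in direction. Of the 6 tested, limma called 0 in CTdel against con and 4 were at an unadjusted p under 0.05, between S100a8 (7.64 and 28.79 in con against 2.92 and 6.84) and Csf1r (0.05 and 0.01 in con against 7.96 and 1.72). The part of these genes in the results below was not tested.

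In control cells most cluster genes were near the floor of the assay, and a single pair of H2A genes carried most of the signal. The median cluster gene stood at FPKM 0.2 and 0.61 in the 2 con libraries, and 8 of the 67 genes were at 0 in both. FPKM reached 1 in both con libraries for 10 genes. Over all 6 libraries, 34 genes had a mean FPKM of at least 1, 6 of at least 10 and 1 of at least 100.

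Hist1h2ap, an H2A gene at chr13:21833024-21833475, stood at FPKM 118.36 and 708.19 in con, with 160.17 and 786.62 in ICN and with 175.96 and 800 in CTdel. Its near copy Hist1h2ao stood at 42.81 and 113.01 in con, with 37.45 and 175.14 in ICN and with 72.59 and 131.98 in CTdel. For both genes every replicate 2 library was above every replicate 1 library, and for Hist1h2ap the gap between replicates was larger than any difference between groups. The log2 difference of Hist1h2ap from con, on the log2(FPKM + 1) scale used for all differences here, was 0.29 in ICN (SE 0.20, limma adjusted p = 0.51) and 0.37 in CTdel (SE 0.20, adjusted p = 0.601). Together the pair made up 79.5% and 91.2% of all cluster gene FPKM in con, 50.6% and 73.6% in ICN and 60.9% and 90.3% in CTdel. A sum over the whole family is therefore mostly the level of these 2 genes, and the class sums below are given for H2A with and without them.

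With ICN, most cluster genes of each of the 5 classes had higher values than in con in both replicates, with no single gene past the test. The gene in the middle of the 67 was higher by 0.77 on the log2 scale (0.71 in replicate 1 and 0.94 in replicate 2), against 0.04 for the middle of all 16799 genes in both tables. Of the 67, 53 were higher in ICN in both replicates and 1 was lower in both, where 36.9% of all genes were higher and 19.5% lower in both. In replicate 1 alone 58 were higher, where 55% of all genes were, and in replicate 2 alone 61, where 60.1% were. Both ICN libraries lay above both con libraries for 46 of the 67 genes, where 29.5% of all genes did so, and they lay below for none, where 14.2% did. Over the 43 genes that passed the filter on low values, limma called 0 at an adjusted p under 0.05, where 0.0362% of all 11050 tested genes were called higher and 0% lower. At an unadjusted p under 0.05 there were 24 of 43, where 15% of tested genes passed, and the smallest adjusted p was 0.103. Tested with con and ICN alone the count was 8 of 43, with 162 calls among all genes. Without the table as a term it stayed at 0. Fits that left out a library kept a single library in its group and are described at the end. The filter favours the group in which a gene is high. Of the 43, 19 would not have passed it without the ICN libraries, and 6 of these reached FPKM 1 in ICN libraries alone. On con alone 10 would have passed, so the counts over the 67 carry the description.

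**Figure D1:**
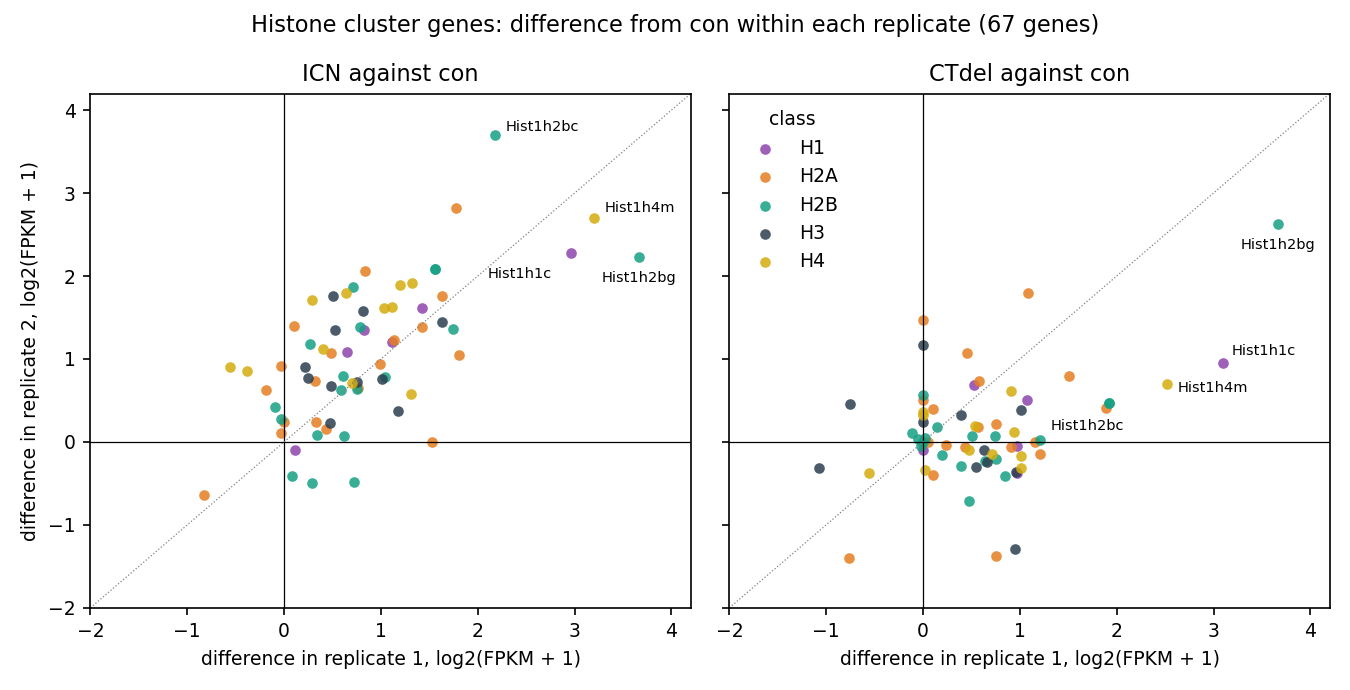
Each point is 1 of the 67 histone cluster genes, coloured by class. The axes give its difference from con on the log2(FPKM + 1) scale in replicate 1 (horizontal) and replicate 2 (vertical), and the dotted line marks equal differences. With ICN (left), 53 of 67 points lie in the upper right, where both differences are above 0; with CTdel (right), 25 do, and Hist1h2bg lies far from the rest.

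The 6 genes of H1, the linker histone, summed to FPKM 4.65 and 12.18 in con and to 43.24 and 61.99 in ICN. Most of this was Hist1h1c, the gene of the linker histone H1.2, which stood at 3.95 and 9.38 in con against 37.51 and 49.37 in ICN. Its 2 ICN libraries were far above both con libraries, and its transcript shares few windows with other genes. The difference was 2.62 (SE 0.49, limma adjusted p = 0.154). Hist1h1d stood at 0.28 and 1.13 in con against 1.76 and 3.94 in ICN (difference 1.16, SE 0.27, adjusted p = 0.19). Hist1h1e stood at 0.27 and 0.95 in con against 1.25 and 3.98 in ICN (difference 1.09, SE 0.47, adjusted p = 0.346). Both had ICN libraries above their con libraries. Of the 6 H1 genes, 5 were higher in both replicates. The sixth, Hist1h1t, the linker histone of the testis, stayed at or below FPKM 0.08 in every library.

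The 17 genes of H2A other than Hist1h2ap and Hist1h2ao summed to FPKM 12.79 and 17.9 in con against 36.28 and 61.94 in ICN. That is 2.84 and 3.46 times the con level within the replicates, while the whole class of 19, led by the 2 excluded genes, stood at 1.34 and 1.22 times. Hist2h2aa1, an H2A gene on chromosome 3, stood at 1.27 and 1.79 in con against 6.82 and 18.68 in ICN. It had the largest difference of its class, 2.30 (SE 0.56, adjusted p = 0.201), with every ICN library above con. Hist3h2a, on chromosome 11, stood at 4.73 and 2.60 in con against 9.27 and 14.05 in ICN (difference 1.45, SE 0.34, adjusted p = 0.19). Not all members shared the direction. Hist1h2ag was at 0.78 and 3.82 in con against 0 and 2.09 in ICN, the only one of the 67 that was lower in both replicates. Hist1h2ai, at 1.53 and 4.38 in con against 1.47 and 4.80 in ICN, had groups that overlapped and opposite signs in the replicates.

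H2B, the partner of H2A, had 19 genes that summed to FPKM 12.7 and 18.17 in con against 66.02 and 118.2 in ICN. Hist1h2bc and Hist1h2bg made up much of it. Hist1h2bc stood at 3.71 and 4.68 in con against 20.4 and 72.9 in ICN, a difference of 2.94 (SE 0.59, adjusted p = 0.169). Hist1h2bg stood at 0.80 and 0.61 in con, or about 6 fragments in each library, and at 21.91 and 6.56 in ICN, or about 180 and 54. Its difference was 2.95 (SE 0.37, adjusted p = 0.103), the smallest adjusted p of the family. In neither gene did the groups overlap. Hist2h2bb, at 0.57 and 0.96 in con against 4.25 and 4.04 in ICN, had libraries close to each other within each group (difference 1.55, SE 0.25, adjusted p = 0.123). Hist2h2be, whose GENCODE transcript of 2620 bases shares none of its windows with another gene, stood at 4.86 and 3.55 in con against 5.18 and 2.43 in ICN. Its groups overlapped and its replicates differed in sign.

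The core histones H3 and H4 also had ICN sums above those of con. The 11 H3 genes in both tables summed to FPKM 3.42 and 8.14 in con against 13.6 and 28.13 in ICN, and each of the 11 was higher in ICN in both replicates. Hist1h3d stood at 0.65 and 1.31 in con against 4.12 and 5.31 in ICN, a difference of 1.54 (SE 0.27, adjusted p = 0.144). Hist1h3b stood at 0.68 and 2.07 in con against 1.43 and 6.82 in ICN, so its groups overlapped (difference 0.94, SE 0.34, adjusted p = 0.307). Hist1h3h was at 0 in both con libraries and at 0.42 and 2.38 in ICN. Hist1h3i stood at 0 and 1.44 in con against 1.02 and 3.12 in ICN, and Hist2h3c2 at 1.10 and 0.57 in con against 1.44 and 1.92 in ICN. These 3 have few fragments behind them, and their adjusted p was at least 0.34.

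The 12 genes of H4 summed to FPKM 7.97 and 22.75 in con against 33.68 and 74.02 in ICN, and 10 of them were higher in both replicates. Hist1h4i had the highest mean of the class. It stood at 5.69 and 14.81 in con against 15.58 and 22.61 in ICN, a difference of 0.94 (SE 0.34, adjusted p = 0.302). Hist1h4m stood at 0 and 1.21 in con, or 0 and about 10 fragments, and at 8.21 and 13.37 in ICN, or about 59 and 96. Its difference was 2.95 (SE 0.44, adjusted p = 0.12), while its near copy Hist1h4n, which shares most of its sequence, stood at 0.47 and 0.30 in con against 0 and 1.42 in ICN. Hist1h4k stood at 0.85 and 1.27 in con against 3.25 and 7.44 in ICN (difference 1.55, SE 0.32, adjusted p = 0.169).

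**Figure D2:**
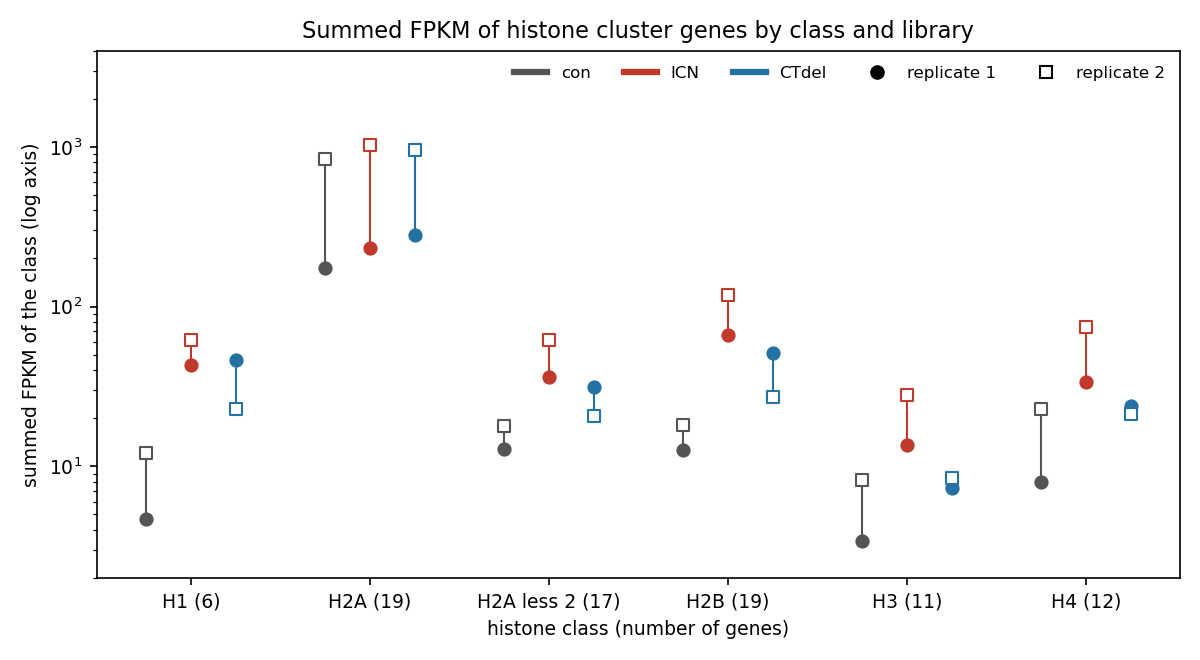
Summed FPKM of the genes of each histone class listed in both tables (log axis), 1 point per library, with a line joining the 2 libraries of a group. Both ICN libraries lie above both con libraries in every class but H2A, where 2 genes (left out in the third column) put all libraries of replicate 2 above those of replicate 1.

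The difference was read again at set levels, since faint genes behave unlike strong ones. Among tested genes of mean FPKM under 10, 31 of 37 cluster genes were higher in both replicates, where 34% of all such genes were. The 37 had passed the filter, which some did only with ICN libraries, so this count is no separate check of the difference. Of the 10 cluster genes at FPKM 1 or more in both con libraries, 6 were higher in both replicates, where 2718 of all 10178 such genes were. Both ICN libraries lay above both con libraries for 5 of the 10, where 2031 of the 10178 did so, and the groups overlapped for 5. The median difference of the 10 was 0.69, against −0.03 for all such genes. Other genes whose span is at most 1000 bases (511 of them) were higher in both replicates in 31.7%. In ICN libraries more genes of every kind had a value above 0: 94.5% and 96.3% of all genes in both tables, compared with 87.5% and 87.6% in con, while CTdel had 91.9% and 90.7%. For the cluster genes these shares were 94% and 95.5% in ICN, 59.7% and 83.6% in con, while CTdel had 82.1% and 86.6%. Without a read total per gene, a lower share of zeros and a higher level cannot be told apart for the faintest genes.

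Small nuclear and other RNAs that have no poly(A) tail had higher sums in ICN than in con in both replicates, with a median difference near 0 in replicate 2. Among the 23 such RNAs in both tables were the U1, U2, U6 and U7 small nuclear RNAs and 7SK. Rny3, listed for replicate 1 alone, was left out. The 23 summed to FPKM 66.15 and 102.1 in con, with 289.7 and 156.7 in ICN and with 167.5 and 69.36 in CTdel. Rn7s1 and Rn7s2 had identical values in all 6 libraries, and so had Rnu3b1, Rnu3b2 and Rnu3b3, so these sums and counts hold the same values more than once. The median difference of the 23 from con with ICN was 1.43 in replicate 1 and 0.09 in replicate 2. Both ICN libraries lay above both con libraries for 9 of 23, where 29.5% of all genes did so. With CTdel the medians were 0.74 and −0.17. The histone genes had medians of 0.71 and 0.94 with ICN, so by medians the order of the replicates was the opposite. By summed FPKM the order was the same, with the larger rise in replicate 1 for both sets. The 67 histone genes summed to 1.93 times con in replicate 1 and 1.45 times in replicate 2. Of the 14 of these RNAs that were tested, limma called 0 in ICN and 5 were at an unadjusted p under 0.05, where 15% of tested genes passed. How much RNA without a poly(A) tail entered each library, and its part in the histone values, was not tested.

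Grouped by the annotated stem-loop and the bases past it, cluster genes had medians above 0 in ICN in every group. The 21 genes in both tables with a GENCODE transcript of over 100 bases past the stem-loop had a median difference of 1.09 and were higher in both replicates in 17 cases. The 23 with a shorter end had 0.70 and 18 cases, and the 23 without a stem-loop match had 0.89 and 18. In the same order, the median of their mean FPKM was 1.41, 0.825 and 0.952. The group without a match also held genes with long GENCODE transcripts, such as Hist2h2be (2620 bases) and Hist1h2bc (1156 bases). These tables hold 1 value per gene, so mRNA with and without a tail cannot be told apart.

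With CTdel, 1 cluster gene rose against con, and the median of the family was above con in replicate 1 and near 0 in replicate 2. Hist1h2bg (chr13:23571400-23571863) stood at FPKM 21.93 and 8.94 in CTdel, about 188 and 79 fragments, against 0.80 and 0.61 in con. Both CTdel libraries were above both con libraries by far more than the spread within con. The log2 difference was 3.15 (SE 0.37, limma adjusted p = 0.0261). It was the only one of 43 tested cluster genes called, where 1.3% of all tested genes were called higher and 0.109% lower, so the count itself is near the background. The call was lost without the table as a term (adjusted p = 0.0597) and with no filter on low values (adjusted p = 0.19). It held in each of the 6 fits that left out 1 library, with differences of 2.53 to 3.77.

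Over the 67 genes the middle difference from con was 0.28 with CTdel, 0.55 in replicate 1 and 0.04 in replicate 2, against 0 for all genes in both tables. In replicate 1, 51 of the 67 were higher than con, where 44% of all genes were, and in replicate 2, 35 were, where 47.5% were. Of the 67, 25 were higher in both replicates, where 25.9% of all genes were, and 4 were lower in both, where 27.8% were. Both CTdel libraries lay above both con libraries for 20 genes, where 18.7% of all genes did, and below for 4, where 18.1% did. At an unadjusted p under 0.05 there were 9 of 43, where 11.8% of tested genes passed. Leaving out CTdel replicate 1 took the median of the tested genes from 0.35 to −0.02, and leaving out CTdel replicate 2 took it to 0.80.

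Of the other genes that were higher with CTdel in both replicates, Hist1h1c stood at FPKM 41.47 and 19.04, against 3.95 and 9.38 in con (difference 2.03, SE 0.49, adjusted p = 0.16). Hist1h4m stood at 4.72 and 2.60, against 0 and 1.21 (difference 1.61, SE 0.44, adjusted p = 0.205). Hist2h2aa2, an H2A gene next to Hist2h2aa1 with all of its windows found elsewhere, stood at 3.89 and 2.48, against 1.31 and 0 (difference 1.44, SE 0.28, adjusted p = 0.097). Hist1h1d was at 1.68 and 2.04 (difference 0.79, SE 0.27, adjusted p = 0.332), and Hist3h2a at 7.57 and 5.03 (difference 0.66, SE 0.34, adjusted p = 0.562). In each of these genes both CTdel libraries lay above both con libraries.

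Others stood lower. Hist1h2ai was at FPKM 0.49 and 1.04 in CTdel, below both con libraries (1.53 and 4.38), with a difference of −1.08 (SE 0.28, adjusted p = 0.185). Hist2h3c2 was at 0 and 0.26, below 1.10 and 0.57 in con (difference −0.69, SE 0.30, adjusted p = 0.46). The class sums of CTdel were further above con in replicate 1 than in replicate 2. H1 stood at 46.26 and 22.88 in CTdel, H2B at 50.91 and 27.12, H4 at 23.93 and 21.1, and H3 at 7.33 and 8.43. H2A stood at 279.8 and 952.7, or 31.25 and 20.68 without Hist1h2ap and Hist1h2ao. In replicate 1 these sums were 9.95 (H1), 4.01 (H2B), 3 (H4), 2.14 (H3), 1.61 (H2A) and 2.44 (H2A without the pair) times con, and in replicate 2 they were 1.88, 1.49, 0.927, 1.04, 1.14 and 1.16 times con.

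**Figure D3:**
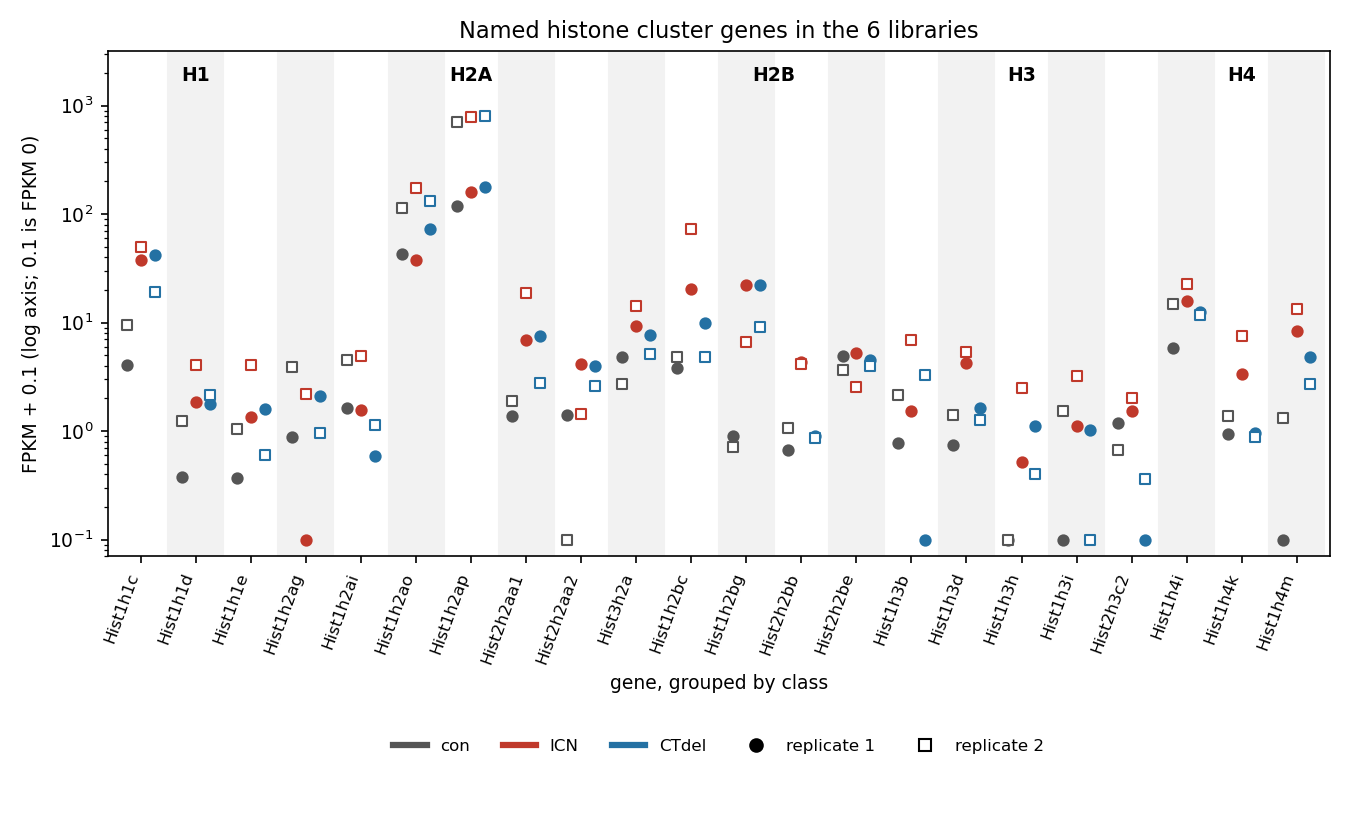
FPKM of the named histone cluster genes in the 6 libraries, on a log axis after adding 0.1, so that a point at the bottom is a value of 0. Circles are replicate 1 and squares replicate 2, and colour gives the group. Hist1h2bg has ICN and CTdel libraries at like levels, 6.56 to 21.93 FPKM, above con, while Hist1h4k and Hist2h2bb have CTdel libraries at the con level, below 1 FPKM.

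Set directly against ICN, CTdel had lower values for 41 of the 67 cluster genes in replicate 1, where 61.3% of all genes were lower, and for 56 in replicate 2, where 57% were. The share in replicate 1 was thus at the background, and no gene passed the test. The middle of the 67 differences was −0.53 (−0.19 in replicate 1 and −0.99 in replicate 2), against −0.04 for all genes. Notch1 was also lower in CTdel than in ICN, by −1.15 in replicate 1 and −5.08 in replicate 2. The mutation and the Notch1 level thus differed together, and the part of either in the histone values was not tested. Of the 67, 34 were lower in both replicates, where 39.9% of all genes were, and 29 had both CTdel libraries below both ICN libraries, where 28% of all genes did. limma called 0 of 43, where 0.0181% of tested genes were called lower and 0% higher, and 14 of 43 were at an unadjusted p under 0.05, where 7.13% of tested genes passed. The count stayed at 0 without the table as a term.

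The 2 genes with the smallest p in that comparison were Hist2h2bb, whose replicates were close, and Hist1h4k. Hist2h2bb stood at FPKM 4.25 and 4.04 in ICN and 0.80 and 0.76 in CTdel, the latter within the range of con (0.57 and 0.96). The CTdel to ICN difference was −1.53 (SE 0.25, adjusted p = 0.326). Hist1h4k stood at 3.25 and 7.44 in ICN and 0.87 and 0.79 in CTdel, with con at 0.85 and 1.27, and its difference was −1.71 (SE 0.32, adjusted p = 0.357), from −1.18 in replicate 1 to −2.24 in replicate 2. Hist1h2bg showed nothing of the kind, with 21.91 and 6.56 in ICN and 21.93 and 8.94 in CTdel. Hist1h2bc was high in ICN (20.4 and 72.9) and at 9.91 and 4.76 in CTdel, where the replicate 2 value is near that of con (4.68).

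Neighbours that start close together could differ in their values. Of the cluster genes, 13 pairs of H2A and H2B point away from each other with at most 500 bases between their starts. Hist1h2bg starts 175 bases from Hist1h2ae, which stood at FPKM 1.61 and 2.90 in con, with 1.56 and 6.31 in ICN and with 1.79 and 1.95 in CTdel, so the groups of Hist1h2ae overlapped where those of Hist1h2bg did not. Hist1h2bc starts 250 bases from Hist1h2ac, which stood at 0 and 0.08 in con, with 2.51 and 1.23 in ICN and with 1.84 and 0.87 in CTdel. Hist1h2ap and Hist1h2br are 235 bases apart. Hist1h2ap had the highest level of the family with a difference of 0.29 in ICN, and Hist1h2br stood at 0.19 and 0.89 in con, with 2.51 and 7.03 in ICN and with 3.50 and 1.62 in CTdel.

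By position, most of the genes lie in the large cluster on chromosome 13. The 31 genes at 23531044 to 23934913 had a median difference of 0.91 with ICN and were higher in both replicates in 28 cases. The 23 genes at 21715711 to 22043658 had 0.73 and 16 cases. The 9 genes in both tables of the chromosome 3 cluster (96219885 to 96270192) had 0.96 and 7 cases, and the 3 of chromosome 11 had 0.16 and 1 case, Hist3h2a. With CTdel the medians were 0.27, 0.29, 0.36 and 0.16.

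Histone genes outside the clusters, most of which are active outside S phase too and give mRNAs with a poly(A) tail, had a median near 0 (H2afx, among them, can give a stem-loop mRNA as well). Of 12 such genes in both tables, 9 were tested and limma called 0 in each comparison, with 0, 1 and 1 at an unadjusted p under 0.05 (ICN, CTdel, CTdel against ICN). Their median difference was 0.05 with ICN and 0.04 with CTdel. H3f3b, which makes the variant H3.3, stood at FPKM 317.62 and 412.08 in con, with 489.36 and 522.89 in ICN and with 446.26 and 443.27 in CTdel, with every library of the other groups above con (difference 0.48 in ICN, SE 0.20, adjusted p = 0.341). H2afz, which makes H2A.Z, stood at 448.2 and 840.09 in con, with 542.27 and 355.58 in ICN and with 491.96 and 640.54 in CTdel. Its replicates differed in sign.

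The machinery around the histone mRNAs gave no call either. Of 21 genes for histone mRNA transcription and 3′ end processing, all tested, limma called 0 in each comparison, with 0, 2 and 1 at an unadjusted p under 0.05, and the median difference with ICN was −0.05. Srrt, which binds the cap complex, stood at FPKM 75.04 and 97.63 in con against 85.62 and 83.51 in ICN, and Sympk, a scaffold of the cleavage complex, at 55.92 and 69.81 and at 49.72 and 69.31. Of 20 histone chaperones 0 were called, with 2, 1 and 0 at an unadjusted p under 0.05. Their median with ICN was 0.08 in replicate 1 and −0.62 in replicate 2. Nap1l1, which carries H2A and H2B, stood at 369.51 and 482.42 in con, with 364.56 and 215.69 in ICN and with 341.79 and 345.42 in CTdel. Ssrp1, a part of FACT, stood at 110.11 and 165.52 in con against 127.91 and 83.54 in ICN, with opposite signs.

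Genes of DNA replication, which are active in the same phase as the cluster genes, split by replicate. Of 32 genes, all tested, limma called 0, with 0 at an unadjusted p under 0.05 in any of the 3 comparisons. The median difference with ICN was 0.55 in replicate 1 and −0.86 in replicate 2, and 31 of the 32 genes had opposite signs in the replicates. The cluster genes, with 0.71 and 0.94, were higher in both. With CTdel the replication genes had 0.33 and −0.14. The share of cells in S phase was not measured, and in bulk samples more cells with a given mRNA and more mRNA per cell cannot be told apart.

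**Figure D4:**
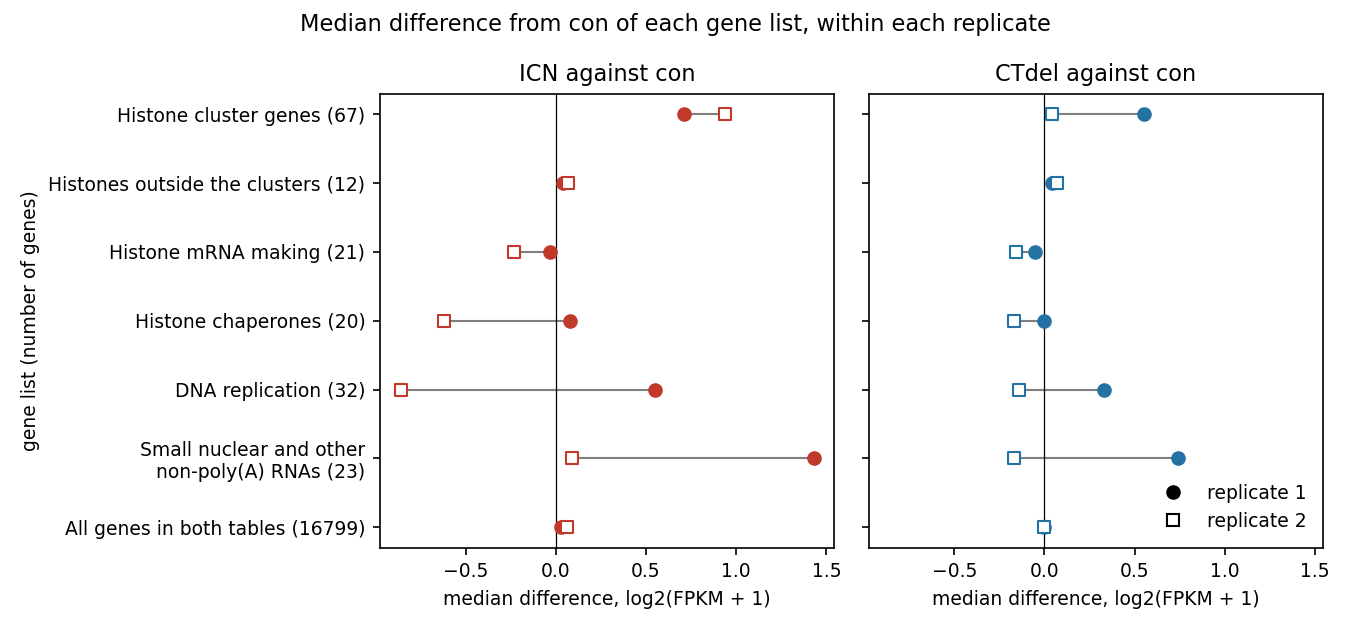
Median difference from con on the log2(FPKM + 1) scale, within replicate 1 (circles) and replicate 2 (squares), for the histone cluster genes, 5 related gene lists and all genes in both tables. With ICN (left), the cluster genes have 0.71 and 0.94, while the DNA replication genes have 0.55 and −0.86 and the small RNAs 1.43 and 0.09; CTdel is on the right.

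Of all the other lists, 1 gene passed the test. Ptprc, which makes the leukocyte surface protein CD45, stood at FPKM 77.58 and 32.65 in con against 254.68 and 178.49 in CTdel, and rose by 2.06 (SE 0.24, limma adjusted p = 0.0263). The call was lost without the table as a term (adjusted p = 0.104), with no filter on low values (0.139), without con replicate 2 (0.0531) and without CTdel replicate 2 (0.135). In ICN it stood at 141.57 and 83.63 (difference 1.09, SE 0.24, adjusted p = 0.176).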

How the data were processed

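RNA was measured in 6 BaF3 libraries. Per the file headers, the authors deposited FPKM per gene, replicate 1 and replicate 2 apart. Per the submitters' processing notes, the tools were RSEM, HISAT2 and Bowtie2 and the builds mm10 and hg19; the role and version of each are not stated. Coordinates and promoters come from RefSeq (GRCm38.p6), which listed all 68 genes, and transcripts from GENCODE vM21.

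Here, log2(FPKM + 1) was tested with limma 3.58.1 in R 4.3.3, with group and table as terms (the table is the replicate number), an intensity trend, 2-sided, on all 6 libraries. Benjamini-Hochberg adjustment ran over 11050 genes, each listed in both tables and at FPKM 1 or more in 2 or more libraries; called is an adjusted p under 0.05. The residual degrees of freedom were 2 and the median prior was 3.82. Fragment numbers are estimates from the smallest FPKM step, and no interval was made from them.

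The cluster genes and the gene lists were chosen with earlier results of these data known. Named genes were, per class, the 3 with the highest mean FPKM, called genes, and those with the largest rise and fall against con; the 2 with the smallest p per comparison; of other lists, called genes and, for histone mRNA, chaperones and histones outside the clusters, the 2 with the highest mean; and Notch1. Hist1h1t, Hist1h2ac, Hist1h2ae, Hist1h2br, Hist1h4n and Hist2h3c1 were picked once their values were known. Cd79a, Cd79b, Pecam1, Adgre1, S100a8, S100a9, Csf1r and H2afx were added in the same way. One gene of the pro-B list is not reported here. Settings varied were the table term, pseudocount, filter, scaling, trend, libraries fitted and each library left out. Deviations of same-numbered libraries from their group means correlated at −0.10 (con and ICN), 0.33 (con and CTdel) and 0.24 (ICN and CTdel) over 11050 genes, and at 0.65, 0.28 and 0.28 over the 43 tested cluster genes.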

Additional observations from a re-analysis of the deposited data

How the results depend on the processing

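Where a library was left out, its group kept 1 library, assumed to vary like the other groups. For ICN against con, 0 cluster genes were called in the fit of all libraries; the count was 8 with only the 2 groups compared and ran from 0 to 22 with a library left out (22 without ICN replicate 1). Calls over all genes then ran from 11 to 1470, beside 4 with all libraries. The median difference of tested cluster genes, 1.16, was 2.14 with a pseudocount of 0.1, 0.77 with no filter, 0.94 after quantile normalization, 0.88 to 1.35 with a library left out, and 0.69 over genes at FPKM 1 or more in both con libraries, a choice made after seeing the data. For CTdel against con, 1 gene was called with the table as replicate block and 0 with no replicate block (130 calls over all genes, beside 156), 0 with no filter (0 over all genes), 4 with only the 2 groups compared (730 over all genes), and 1 to 5 with a library left out. For CTdel against ICN the count was 0, and 0 to 8 with a library left out. Without the replicate block the counts of calls for ICN against con and CTdel against ICN stayed at 0, and Ptprc in CTdel lost its call (adjusted p = 0.104). Hist1h2bc, CTdel against con, went from 0.62 to −0.36 without CTdel replicate 1 (range with a library left out −0.36 to 1.59), and Nap1l1, CTdel against con, from −0.30 to 0.08 without con replicate 2 (range −0.67 to 0.08). The H3 sum of CTdel replicate 1 was 9.46 with Hist2h3c1. The cause of these moves was not tested, apart from the fewer samples or added genes that the settings name. Depth limits the faint genes: at the median length of the family, FPKM 1 is 8.54 to 10 fragments by the bounded estimate above.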
